A study of Gallus gallus with 16 samples.

Results

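The claudins CLDN1, CLDN3, CLDN5 and CLDN11 were examined in the gonads of 19-day chicken embryos. They were taken by gene symbol and are 4 of the 14 claudins with a numbered symbol among the 14074 genes of the deposited table. Tags were counted by SuperSAGE, in which 1 short stretch of each transcript, next to the NlaIII site nearest its poly(A) tail, stands for the whole molecule. A level in RPM (tags of a gene per 1000000 tags of its column) therefore needs no correction for length. Comparing levels between genes also assumes that each transcript has such a site and that its tag was assigned to its gene, which was not tested. The table has 1 column for each sex and substance, 8 in all: methyltestosterone (30 pg per g body weight), an androgen made by synthesis,, untreated, tributyltin (an organotin, 10 pg of tin per g body weight) and sesame oil, each in females and in males. The labels give 10 individuals for each group and no strain, and they do not say whether the androgen or the organotin was given in oil. Left and right gonads, which the labels list as 16 separate libraries, are joined in each column. Each column is therefore a pool, and p-values from fits over the columns measure only the spread of these pools around the fitted terms. With sex and substance as terms, that spread also holds any sex difference that varies with the substance. A column thus has no replicate of its own, and its error is given as an exact Poisson 95% interval, which covers counting error only.

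Depth limits what can be said of weak genes. The methyltestosterone and untreated columns held 1953798 to 6669049 tags, so that 1 tag was worth 0.150 to 0.512 RPM. The tributyltin and sesame oil columns held 314810 to 508095 tags, at 1.97 to 3.18 RPM a tag. A difference between an oil or tributyltin column and an untreated or methyltestosterone column therefore cannot be told apart from whatever else separated these shallow and deep columns.

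Claudins are small proteins that cross the cell membrane several times and join with claudins of the neighbouring cell into the strands of tight junctions, which seal or selectively open the space between cells. CLDN11 forms the strands of the Sertoli cell barrier in the testis and of central myelin, and male mice without it are sterile. Whether a tag shared by similar claudin transcripts was counted once is not given in the sources used here. In mammals CLDN1 is needed for the barrier of the skin, CLDN3 seals many simple epithelia, and CLDN5 is the main claudin of blood vessel endothelium. The embryonic gonad holds supporting cells (Sertoli cells in the testis, granulosa cells in the ovary), steroid-producing cells, germ cells and vessels, and cords of Sertoli cells are already present before hatching. In pooled tissue, fewer cells of a type and less RNA per cell cannot be told apart.

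CLDN11 was the one abundant gene of the 4. It gave 3228 tags over the 8 columns, of which 35 came from females and 3193 from males. CLDN1 gave 23 tags in all, 7 in females and 16 in males. CLDN3 gave 5 tags and CLDN5 gave 3, none of them in a tributyltin or oil column. By mean level over the columns CLDN11 ranked first of the 14 claudins at 83.2 RPM, followed by CLDN2 at 55.4 RPM and, far behind, CLDN1 at 2.84 RPM. The mean hides unequal columns: CLDN11 exceeded CLDN2 in methyltestosterone and untreated males alone, and with the tags of all columns pooled CLDN16 (1.90 RPM) and CLDN15 (1.52 RPM) stood above CLDN1 (1.46 RPM). CLDN3 (0.210 RPM) ranked ninth and CLDN5 (0.0771 RPM) eleventh. Only CLDN11 and CLDN1 reached 1 RPM in 4 columns, the minimum for a test, so 2 of the 4 could be tested.

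**Figure D1:**
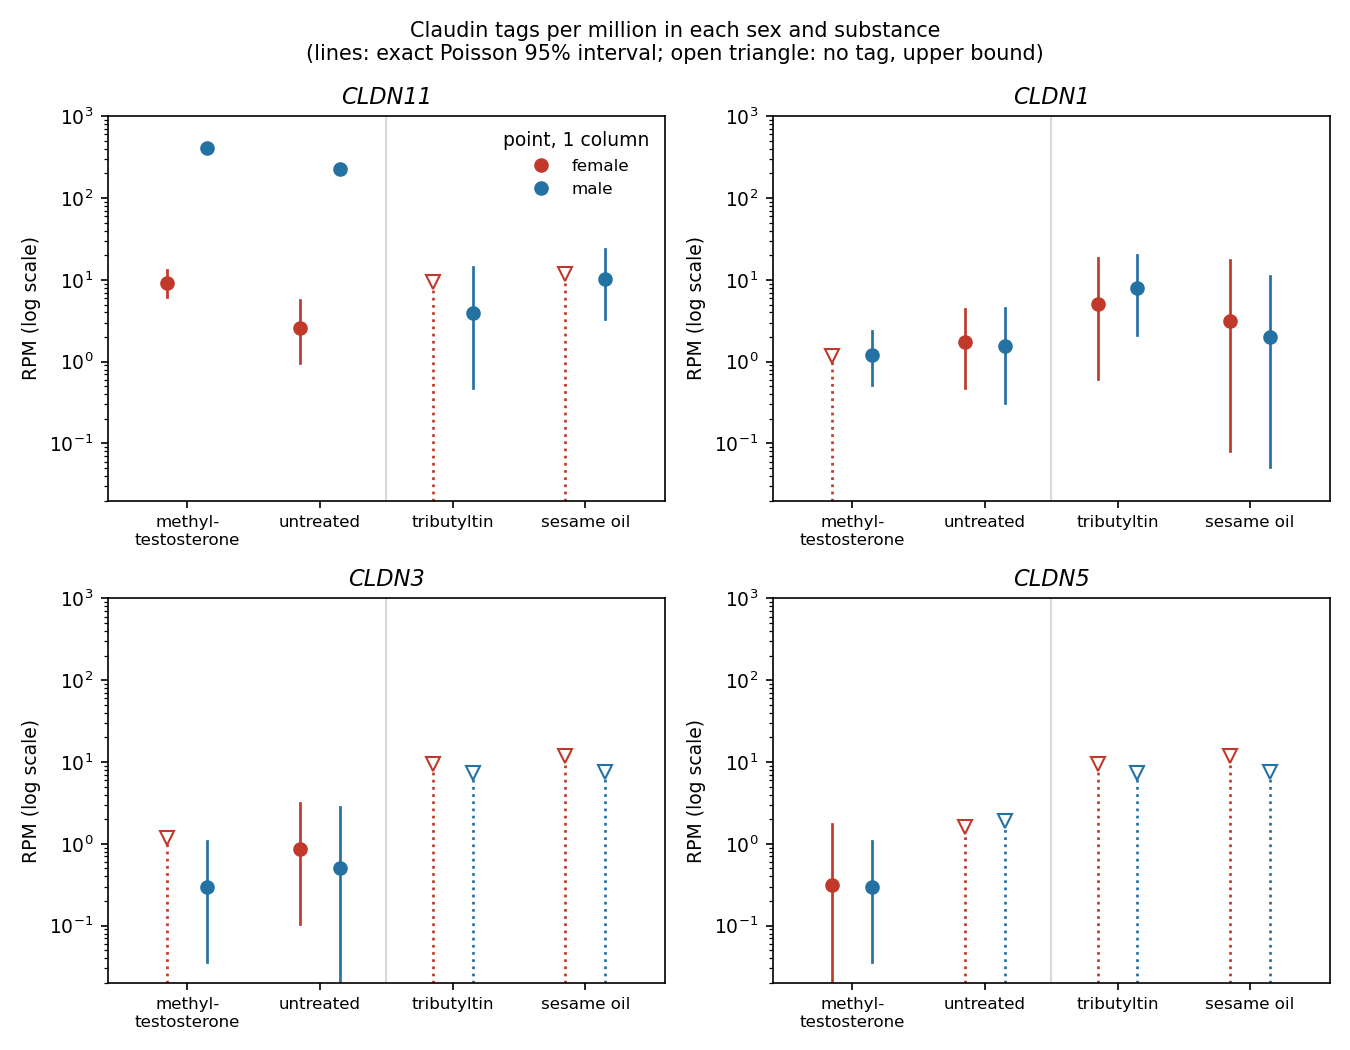
Levels of the 4 claudins in RPM (log scale) in each substance, with females left of males. Points are single columns, lines exact Poisson 95% intervals, and open triangles mark the upper bound where no tag was found. CLDN11 stands apart in methyltestosterone males (411 RPM) and untreated males (229 RPM), while every CLDN3 and CLDN5 value lies below 1 RPM.

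CLDN11 (ENSGALG00000009355, chromosome 9 of galGal4) was lower in females than in males, by 44.7-fold after methyltestosterone and 88.0-fold in untreated embryos. In females CLDN11 was at 9.19 RPM after methyltestosterone (95% interval 6.16 to 13.2), 2.61 RPM untreated (0.957 to 5.67), and without a tag after tributyltin and after oil, with upper bounds of 9.49 and 11.7 RPM. In males CLDN11 was at 411 RPM after methyltestosterone (395 to 426), 229 RPM untreated (209 to 252), 3.94 RPM after tributyltin (0.477 to 14.2, 2 tags) and 10.15 RPM after oil (3.30 to 23.7, 5 tags). The columns of the sexes overlap in range: the highest female value lies above the male tributyltin value. After methyltestosterone and in untreated embryos the intervals of the sexes do not overlap, while after tributyltin and oil the order of the sexes is not established.

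The CLDN11 level in methyltestosterone females was 0.0224 of that in methyltestosterone males (95% counting interval 0.0150 to 0.0322). The CLDN11 level in untreated females was 0.0114 of that in untreated males (0.00415 to 0.0249). After oil and after tributyltin the female columns had no tag, and the male values of 5 and 2 tags lie below the upper bounds of those female columns, so no fold is given and a sex difference was not detectable at this depth. Over the 8 columns the log2 difference, females minus males, was -4.28 on the log2(RPM + 1) scale (SE 0.65, limma adjusted p = 0.00389), and the female column was lower beyond counting error in methyltestosterone and untreated embryos. Among the 9280 genes tested, 553 (5.96%) were called by sex, 341 (3.67%) higher in females and 212 (2.28%) lower, and CLDN11 ranked 8th from the lowest by size of the log2 difference. Without the female tributyltin column 216 genes were called and without the male one 228, and CLDN11 was called with any 1 of the 8 columns left out (log2 -4.94 to -3.71). Leaving out either column of a substance gives the same sex estimate, since the remaining column is then fitted by its own substance term. These refits are therefore not 8 separate checks.

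The call rests on the deep columns. In the methyltestosterone and untreated columns alone the CLDN11 log2 difference was -5.67 (limma adjusted p = 1.40e-11). In the tributyltin and oil columns alone it was -2.89 and was not called (limma adjusted p = 0.297). Each of these fits left a single residual degree of freedom, so the spread of a single gene is poorly known in them. By sex, 1026 genes were called in the deep columns alone and 27 in the shallow ones alone. The sex difference in the deep columns minus that in the shallow ones was -2.77 for CLDN11 (SE 0.92, 95% interval -4.99 to -0.56), which was not called after adjustment over all genes (limma adjusted p = 0.736). For that contrast 1 gene of 9280 (0.0108%) was called, ENSGALG00000027090 on chromosome 4, which the table gives no symbol and which is named here after its value was seen.

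Levels of CLDN11 in males differed between the oil or tributyltin columns and the others far beyond counting error. Sesame oil males had 5 CLDN11 tags where the untreated male level predicts 113, a ratio of 0.0443 (95% counting interval 0.0143 to 0.104). Tributyltin males had 2 CLDN11 tags where the methyltestosterone male level predicts 209, a ratio of 0.00959 (0.00116 to 0.0347). The authors' deposited table gives p = 5.39e-24 for CLDN11 between oil and untreated males and p = 2.13e-46 between tributyltin and methyltestosterone males, from a test that is not stated. In females the comparison with untreated could not be seen at this depth, since the untreated female level predicts 0.821 tags in the oil column and 1.01 in the tributyltin column. The methyltestosterone female level predicts 2.89 tags in the oil column and 3.57 in the tributyltin column, against 0 seen in each.

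Beside this gap in CLDN11, the same ratio was taken for other Sertoli cell genes. Averaged over tributyltin and oil, CLDN11 in males was at 7.04 RPM, against 320 RPM averaged over methyltestosterone and untreated, a ratio of 0.0220. SOX9, the transcription factor that directs Sertoli cell differentiation, had a ratio of 0.216 between the same male columns. AMH, the Sertoli cell hormone that makes the Mullerian ducts regress, had a ratio of 0.717. The Sertoli genes DMRT1 (0.172), WT1 (0.253), INHBB (0.359), FSHR (0.825), HEMGN (1.03) and PTGDS (1.23) lay between 0.172 and 1.23 as well. GATA4 had no tag in tributyltin and oil males, against 2.55 RPM in methyltestosterone and 0.512 RPM in untreated males, and with so few tags its ratio is not given, nor is that of SOX8. Of 1839 genes with a male mean of at least 100 RPM in the methyltestosterone and untreated columns, 6 (0.326%) had a lower ratio than CLDN11, and the median ratio was 0.827. All of these genes, CLDN11 among them, entered by the mean that is also the denominator of the ratio, which favours low ratios. The count is therefore a description and no test. ESAM, an endothelial adhesion protein, had no tag in any tributyltin or oil column and was at 22.5 to 53.6 RPM in the others.

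**Figure D2:**
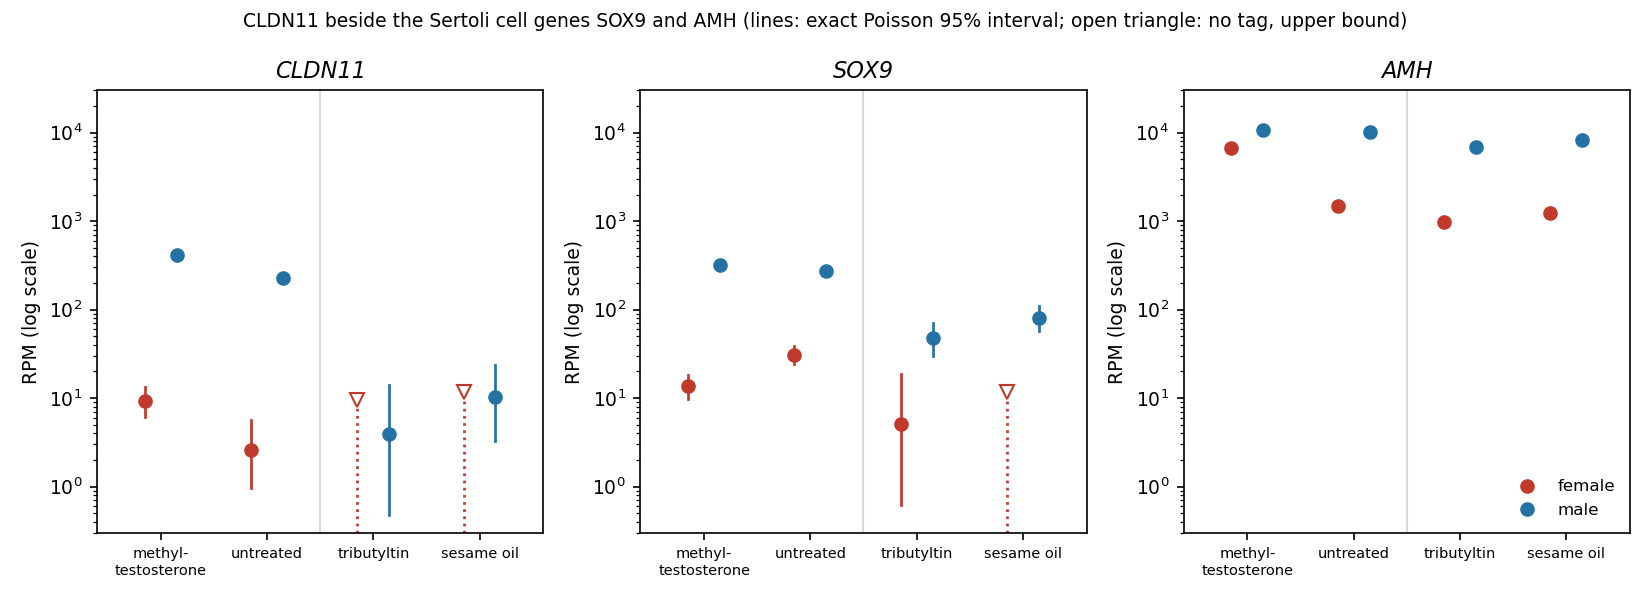
CLDN11, SOX9 and AMH in RPM (log scale) by substance, with females left of males and lines for exact Poisson 95% intervals. AMH in methyltestosterone females (6774 RPM) approaches the male level (10834 RPM), whereas CLDN11 in the same columns is at 9.19 RPM in females and 411 RPM in males.

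Set against AMH within each column, a ratio in which the scaling of the column cancels, CLDN11 was lower in females in the deep columns. AMH was itself lower in females there, at 0.625 of the male level after methyltestosterone and 0.146 in untreated embryos. CLDN11 was at 1.36 RPM per 1000 RPM of AMH in methyltestosterone females, against 37.9 in methyltestosterone males. The untreated value was 1.75 in females, against 22.5 in males. After tributyltin and oil the male values were 0.569 and 1.24, near the female values of the deep columns, and rest on 2 and 5 CLDN11 tags. The female columns of these substances had no CLDN11 tag, so the order of the sexes is not established there.

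The androgen comparison asks whether methyltestosterone moved the claudins. CLDN11 in females was at 9.19 RPM after methyltestosterone, against 2.61 RPM untreated, a ratio of 3.53 (95% counting interval 1.44 to 10.4). In males CLDN11 was at 411 RPM after methyltestosterone, against 229 RPM untreated, a ratio of 1.79 (1.62 to 1.98). The authors' deposited table gives p = 0.0027 for the female pair and p = 4.44e-31 for the male pair. Each ratio compares single pooled columns. Over the 8 columns the CLDN11 log2 difference, methyltestosterone minus untreated, was 1.17 (SE 0.92, limma adjusted p = 0.854) and was not called, in a comparison that called 32 of 9280 genes (0.345%). That count was 20 without the female untreated column, 14 without the female methyltestosterone column and 0 without either tributyltin column. With the deep columns alone, where a single residual degree of freedom remains, the difference of 1.17 was called (limma adjusted p = 0.0161). That fit called 1096 genes for the same comparison, so the call does not set CLDN11 apart.

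The values of AMH after the androgen stand beside those of CLDN11. AMH in females was at 6774 RPM after methyltestosterone, against 1486 RPM untreated, a ratio of 4.56 (95% counting interval 4.40 to 4.73). In males AMH was at 10834 RPM after methyltestosterone, against 10186 RPM untreated, a ratio of 1.06 (1.05 to 1.08). AMH in methyltestosterone females was thus at 0.625 of the male level, while CLDN11 was at 0.0224 of it. The sex difference under methyltestosterone minus that under the other substances was 2.09 on the log2 scale for AMH (SE 0.39, limma adjusted p = 0.999997) and -1.41 for CLDN11 (SE 1.67, limma adjusted p = 0.999997). Of the 9280 genes 0 (0%) were called in that contrast with limma, and 163 had an unadjusted p under 0.05.

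Tributyltin against sesame oil called no claudin. CLDN11 had no tag in either female column, and in males it was at 3.94 RPM after tributyltin, against 10.15 RPM after oil, a ratio of 0.388 (95% counting interval 0.0369 to 2.37). Over the 8 columns the CLDN11 log2 difference was -0.59 (SE 0.92, 95% interval -2.64 to 1.46, limma adjusted p = 0.837). CLDN1 had a log2 difference of 1.05 (SE 0.78, 95% interval -0.68 to 2.79, limma adjusted p = 0.633). Its direction turned when all columns were thinned to the shallowest depth, as did that of CLDN11 when the male tributyltin column was left out (0.73). CLDN2 in females was at 61.7 RPM after tributyltin, against 118 RPM after oil, a ratio of 0.525 (95% counting interval 0.301 to 0.902), and its log2 difference over the columns was -0.96 (SE 0.38, limma adjusted p = 0.406). No gene of 9280 (0%) was called in limma, while 991 had an unadjusted p under 0.05, and on recovered tags of 7 columns edgeR called 5 genes and DESeq2 called 2. Without the male oil column limma called 49.

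CLDN1 (ENSGALG00000026862, chromosome 9) was present at a few tags in either sex. In females CLDN1 had no tag after methyltestosterone (upper bound 1.17 RPM) and was at 1.74 RPM untreated (4 tags), 5.14 RPM after tributyltin (2 tags) and 3.18 RPM after oil (1 tag). In males CLDN1 was at 1.20 RPM after methyltestosterone (8 tags), 1.54 RPM untreated (3 tags), 7.87 RPM after tributyltin (4 tags) and 2.03 RPM after oil (1 tag). The ranges of the sexes overlap, and the largest male value, after tributyltin, has an interval of 2.15 to 20.2 RPM. The log2 difference of CLDN1, females minus males, was -0.27 (SE 0.55, 95% interval -1.50 to 0.95, limma adjusted p = 0.848), and it turned to 0.01 without either methyltestosterone column. Methyltestosterone minus untreated gave -0.83 for CLDN1 (SE 0.78, limma adjusted p = 0.898), and no fold is given for females, where 0 tags after methyltestosterone met 4 tags in untreated embryos. The authors' deposited table gives p = 0.0192 for CLDN1 between those female columns and p = 0.017 between tributyltin and untreated males. In the RefSeq gene order CLDN1 lies next to CLDN16, a claudin that carries magnesium between kidney cells in humans. In that order CLDN11 lies between SLC7A14 and SKIL, CLDN3 beside ABHD11 and CLDN9, and CLDN5 beside CDC45. CLDN16 gave 30 tags, of which 29 were in the methyltestosterone and untreated columns, while CLDN1 had 8 of its 23 tags in the shallow ones.

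CLDN3 (ENSGALG00000022557, chromosome 19) was barely detected. It was at 0.869 RPM in untreated females (2 tags, 95% interval 0.105 to 3.14), and it had no tag in methyltestosterone females (upper bound 1.17 RPM). In males CLDN3 was at 0.300 RPM after methyltestosterone (2 tags) and 0.512 RPM untreated (1 tag). CLDN5 (ENSGALG00000001621, chromosome 15) was at 0.317 RPM in methyltestosterone females (1 tag) and 0.300 RPM in methyltestosterone males (2 tags), with no tag in the untreated columns. For both genes the tributyltin and oil columns had no tag, with upper bounds of 7.26 to 11.7 RPM, and the deep columns predict at most 0.338 tags there. A difference between the substances was not detectable at this depth. Without the filter on low values the log2 sex difference was -0.02 for CLDN3 and 0.00 for CLDN5 (limma adjusted p = 0.964 and 0.987).

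The low values of CLDN3 and CLDN5 stood beside ample tags of epithelial and endothelial genes. Of 17 epithelial markers listed, 10 were in the table, and their summed level was 741 to 1090 RPM in female columns and 177 to 314 RPM in male columns. KRT19 and KRT8, keratins of simple epithelia, and SPINT1, a protease inhibitor of epithelia, had the highest means. KRT19 alone was at 870 RPM in oil females and 877 RPM in tributyltin females. The epithelial sums there mainly repeat KRT19 and do not describe the list as a whole. KRT19 and KRT8 were higher in females (log2 2.01 and 2.39, limma adjusted p = 0.00175 and 0.00110), as was the epithelial transcription factor ELF3 (log2 3.24, limma adjusted p = 0.0126, lost without either untreated or either tributyltin column), and SPINT1 was not called (log2 1.02, limma adjusted p = 0.0512). Of 18 endothelial markers 14 were in the table, with summed levels of 394 to 693 RPM in females and 303 to 422 RPM in males. EMCN, EGFL7 and SOX18, all of blood vessels, had the highest means, and EGFL7 was higher in females (log2 0.84, limma adjusted p = 0.0314), a call lost with any 1 column left out (adjusted p 0.0734 to 0.113). VE-cadherin (CDH5), a defining gene of endothelium, was at 12.7 to 28.7 RPM in females and 7.87 to 25.1 RPM in males, and CLDN5 reached at most 0.317 RPM in the deep columns. Whether the tag sites of CLDN3 and CLDN5 lie in the gene models used for counting was not tested.

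The remaining claudins show how CLDN11 stands in the family. CLDN2, which forms cation channels in leaky epithelia, was the abundant claudin of females. CLDN2 was at 115 RPM after methyltestosterone, 64.7 untreated, 61.7 after tributyltin and 118 after oil in females. The male values of CLDN2 were 28.8 after methyltestosterone, 12.8 untreated, 13.8 after tributyltin and 28.4 RPM after oil, and no male value reached the lowest female one. The log2 difference of CLDN2 was 2.08 (SE 0.27, limma adjusted p = 0.00175), higher in females in 4 of 4 substances, and the sex difference in deep columns minus that in shallow ones was 0.06 (SE 0.48). CLDN2 made up 83.7% to 94.9% of all claudin RPM in the female columns. CLDN11 made up 92.0% in methyltestosterone males and 91.2% in untreated males. In the shallow male columns CLDN11 made up 14.3% after tributyltin (2 tags) and 23.8% after oil (5 tags), shares known only roughly from so few tags. Of the 10 other claudins 3 could be tested and 1 was called by sex, CLDN2, where 3.67% of all genes were called higher in females. CLDN15 (log2 0.52, limma adjusted p = 0.699) and CLDN16 (log2 -0.84, limma adjusted p = 0.451) were not called, and CLDN4 and CLDN18 had no tag in any column.

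**Figure D3:**
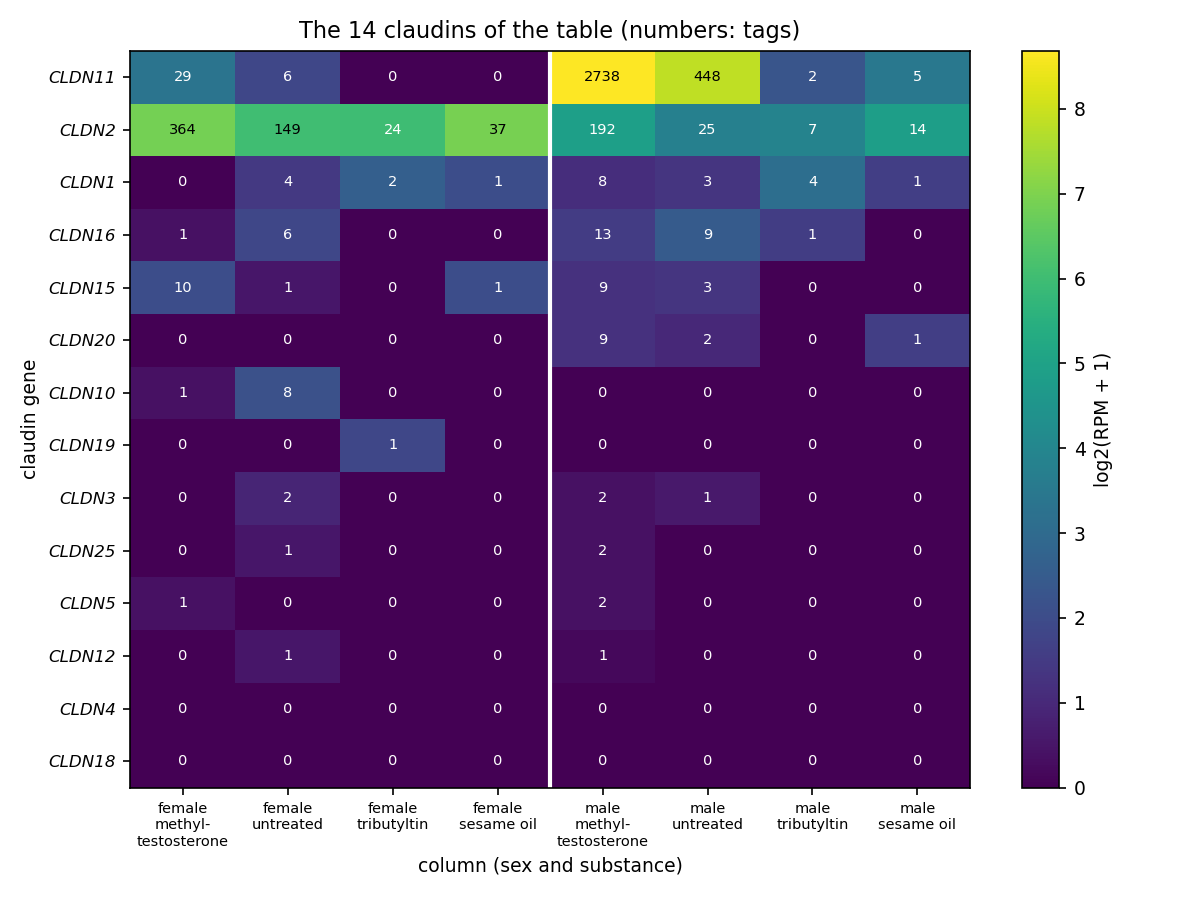
The 14 claudins by column, coloured by log2(RPM + 1), with the number of tags printed in each cell and female columns left of male ones. CLDN11 and CLDN2 carry nearly all tags, and CLDN11 has 2738 and 448 tags in methyltestosterone and untreated males but 2 and 5 in tributyltin and oil males.

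The partners of claudins in the junction were set beside the share called by sex over all genes, 5.96% in either direction. Among 8 tested entries of tight junction membrane proteins 0 were called by sex in limma (median log2 -0.23, against 0.06 over all genes), and MARVELD3 here, like CTNNA2 among the adherens genes, has 2 entries in the table. JAM3, a junctional adhesion molecule and the most abundant of them, had 566 to 752 RPM in females, against 370 to 434 RPM in males without overlap, but was not called (log2 0.64, SE 0.17, limma adjusted p = 0.0585). OCLN, occludin, gave 4 tags in all, and CXADR, a virus receptor of epithelial junctions, gave none. Of 19 tested plaque proteins, which tie the strands to the cytoskeleton, 2 were called higher in females and 1 lower, with a median of 0.19. CGN, the plaque protein cingulin, had 0 to 19.6 RPM in females, against 33.5 to 59.4 RPM in males (log2 -2.64 with SE 0.58, limma adjusted p = 0.0244), so that it was lower in females like CLDN11. Without the male tributyltin column CGN was at log2 -1.82 and was not called (limma adjusted p = 0.0673). PARD3B, a polarity scaffold, had 79.1 to 321 RPM in females, against 36.3 to 97.4 RPM in males (log2 1.53 with SE 0.21, limma adjusted p = 0.00226), and AMOTL2, an angiomotin-like protein, was also higher in females (log2 1.28, SE 0.26, limma adjusted p = 0.0179). The AMOTL2 call was lost without either tributyltin column or the female oil column (adjusted p 0.05003 to 0.0675). TJP1 (ZO-1), the scaffold that binds claudins, had 66.3 to 119 RPM in females, against 60.9 to 95.2 RPM in males (log2 0.08 with SE 0.23, limma adjusted p = 0.890).

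**Figure D4:**
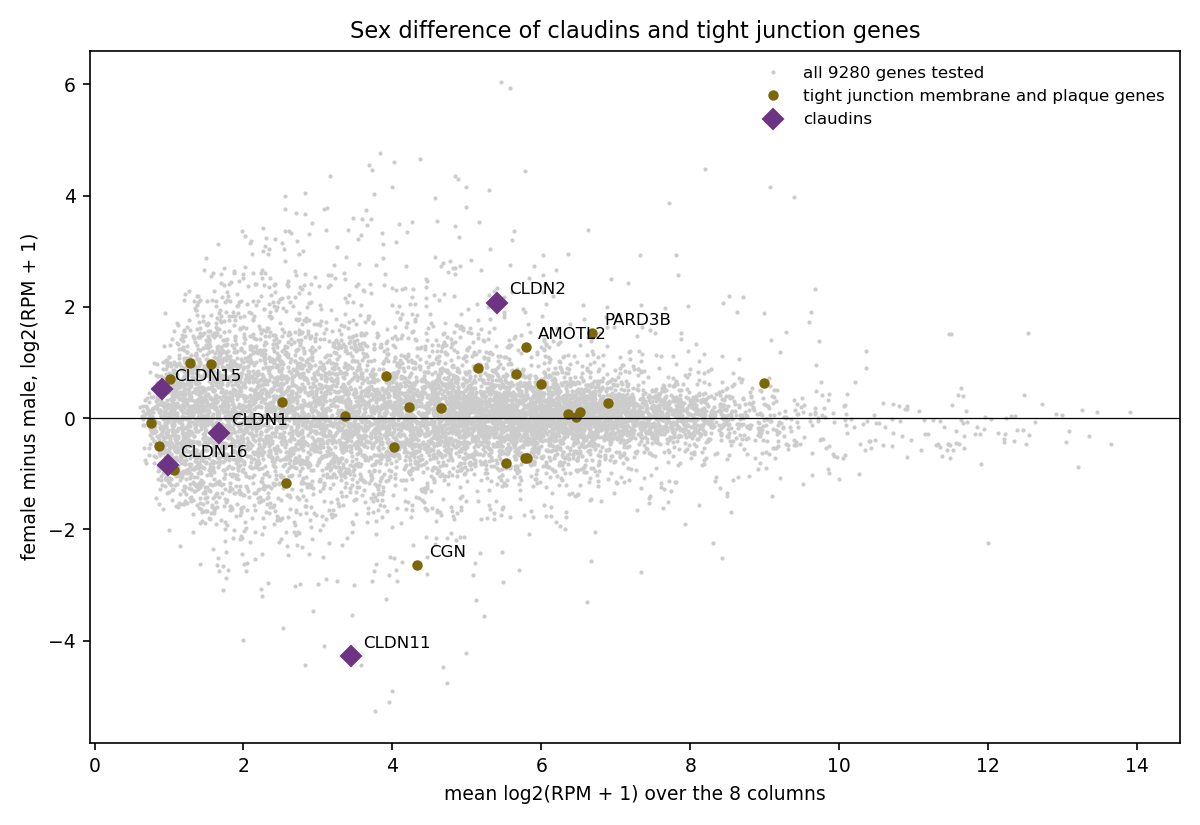
Log2 difference on the log2(RPM + 1) scale, females minus males, against mean log2(RPM + 1) over the 8 columns for all 9280 genes tested (grey), tight junction membrane and plaque genes (brown) and claudins (purple diamonds). CLDN11 (-4.28) and CGN (-2.64) lie lowest of the marked genes and CLDN2 (2.08) highest.

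Of 10 tested adherens junction genes 3 were called lower in females and none higher (median -0.04), where 2.28% of all genes were called lower. These were the cadherins CDH3 (log2 -1.25, limma adjusted p = 0.00285), CDH11 (-1.03, adjusted p = 0.0126) and CDH2 (-1.19, adjusted p = 0.0313), of which CDH2, N-cadherin, joins Sertoli cells in rodents. CDH3 kept its call with each column left out, while CDH11 lost it without either tributyltin column and CDH2 without any methyltestosterone or tributyltin column (adjusted p 0.0705 to 0.154). Of 7 gap junction genes 1 was called, the connexin gene GJB6, higher in females (log2 2.17, limma adjusted p = 0.0472), a call lost with any 1 column left out. Over all genes 3.67% were called higher, and a single member sets no list apart.

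Markers of the cell types in which CLDN11 is known were set beside it. Of 9 tested Sertoli cell markers 4 were called lower in females and none higher, SOX9, AMH, HEMGN and INHBB (log2 -4.23, -2.25, -3.53 and -3.19), with a list median of -1.71, where 2.28% of all genes were called lower. The 5 Sertoli markers that were not called were DMRT1 at log2 -1.71 and, with values above 0, FSHR (0.53), GATA4 (0.98), WT1 (1.17) and PTGDS (1.29). Without the female tributyltin column AMH missed the threshold (log2 -2.06, limma adjusted p = 0.0512), and INHBB missed it without the male methyltestosterone column (0.0594). The 10 Sertoli markers in the table summed to 1319 to 7246 RPM in females, the top value after methyltestosterone, and to 7235 to 11564 RPM in males, and all 10 had a tag in each sex. Most of each sum was AMH, at 6774 RPM in methyltestosterone females and 10834 RPM in methyltestosterone males. The sums therefore mainly repeat AMH and do not describe the list as a whole. Of 4 tested markers of myelinating glia, SOX10 and MBP were called higher in females (log2 3.22 and 1.80, limma adjusted p = 0.0151 and 0.0409) and none lower. The share of all genes called higher in females was 3.67%. The MBP call was lost without any untreated, methyltestosterone or tributyltin column, and that of SOX10 without the female methyltestosterone column (adjusted p 0.0513 to 0.164). The other two had log2 differences below 0 that were not called, PMP22, the most abundant of the list, at -0.02 and S100B at -0.78 (limma adjusted p = 0.967 and 0.685). CLDN11 was lower in females, as were SOX9 and AMH but not the whole Sertoli list, while in the male tributyltin and oil columns its ratio of 0.0220 stood below those of SOX9 and AMH given above.

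Markers of other tissues and cell types also moved with sex, and their part in the claudin values was not tested. The counts below stand beside 3.67% of all genes called higher in females and 2.28% called lower. Of 5 tested adrenal medulla markers 5 were called higher in females, with summed levels of 400 to 1178 RPM in females and 51.2 to 379 RPM in males. Of 6 tested mesonephros and kidney markers 4 were higher (sums of 378 to 1196 RPM in females and 22.3 to 123 RPM in males), with PAX2 at 0 in every column. Gut markers summed to 1152 RPM in untreated females and to 1.97 to 22.2 RPM in the other 7 columns, and 1 of 2 tested was called higher in females, TSPAN8 (lost with the untreated, oil or tributyltin column of either sex left out). Of 6 granulosa and ovarian markers 3 were higher in females (RSPO1, CYP19A1 and BMP7). The calls of BMP7, of CALB1 among the kidney genes and of DBH and PNMT among the adrenal ones were also lost with some single columns left out (limma adjusted p 0.05004 to 0.105). Among 5 germ cell markers 1 was lower, KIT, the receptor of stem cell factor (log2 -1.63, limma adjusted p = 0.0497), a call lost with any 1 column left out. Of the lists in this paragraph, only germ cells had a member called lower in females.

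The genes whose profile over the 8 columns was most like that of CLDN11, among 4856 genes with a symbol and a mean of at least 20 RPM, were AZI1, SLC45A3, LIMD2, AGRN and GPBP1, with Pearson r of 0.961, 0.953, 0.941, 0.939 and 0.939 on log2(RPM + 1). These points share the depth of their columns, so r is a description over 8 columns. AZI1 was at 82.6 to 170 RPM in females and 191 to 678 RPM in males, and methyltestosterone males were its highest column, as for CLDN11. SOX9 ranked 36th by this measure (r = 0.877) and AMH 104th (r = 0.822). For CLDN1 the leading gene was SKP2 (r = 0.990), but CLDN1 itself had 0 to 8 tags a column, and a likeness to so sparse a gene is no finding.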

How the data were processed

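SuperSAGE tags of pooled chicken gonads were analysed. Tags start at the NlaIII site nearest the poly(A) tail, per the labels' protocols, and Novoalign and galGal4 are named in the submitters' processing notes, without a version. The authors deposited 1 table of tags scaled to 1000000 per column, a unit written RPM here, with 0.05 in place of no tag (taken as 0). Left and right libraries are joined in it in a way that is not given in the sources used here. The authors also deposited a p-value for each gene and pair of columns, from a test that is not stated.

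Values were whole multiples of 1 tag (100% within 0.01 tag), so tags were recovered for exact Poisson intervals at 95%. Intervals of ratios come from the exact binomial test on tags. Both cover counting error only. The fits used limma 3.58.1 in R 4.3.3 on log2(RPM + 1), with sex and substance as terms, over the 9280 genes that reached 1 RPM in 4 or more of the 8 columns, with Benjamini-Hochberg adjustment at 0.05. A sex-by-methyltestosterone and a sex-by-depth term were each added in turn. edgeR 4.0.16 and DESeq2 1.42.0 on recovered tags of 7 columns (without female untreated), other pseudocounts, filters and scaling, thinning, deep or shallow columns alone and omission of each column in turn were alternatives. The fit was tested on simulated data.

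Members, lists and tests were chosen with earlier results of these data known. Named genes are the 4 claudins, AMH and SOX9, called members of each list (up to 4 by p), up to 3 abundant members of each cell type list, and the 5 genes most alike in profile. The last are left out for CLDN3 and CLDN5, which have 5 and 3 tags, and shortened for CLDN1. Other names illustrate a list, or a count of 5 or fewer, and were chosen after their values were seen. Gene neighbours come from RefSeq on GRCg7b and are used for order only. Results of some named genes are not reported here.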

Additional observations from a re-analysis of the deposited data

Results flagged for a closer look

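SOX9 had ratios on opposite sides of 1 in the sexes after methyltestosterone. In females SOX9 was at 13.6 RPM after methyltestosterone, against 30.8 RPM untreated, a ratio of 0.442 (95% counting interval 0.295 to 0.654). In males SOX9 was at 322 RPM after methyltestosterone, against 273 RPM untreated, a ratio of 1.18 (1.072 to 1.299). Each ratio compares single pooled columns, and the difference between these ratios was not tested. A related contrast, the sex difference under methyltestosterone minus that under all other substances, was -0.32 for SOX9 (SE 1.31, limma adjusted p = 0.999997).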

How the results depend on the processing

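CLDN11 was lower in females under all 18 alternatives, from log2 -5.67 to -2.89, and was called in 17 of them. Leaving out the female or the male column of a substance gives 1 and the same sex estimate, so these are not 18 separate checks. The alternative without a call was the oil and tributyltin columns alone (-2.89). The CLDN1 sex difference was not called in any and turned to 0.41 with thinned columns, with a range of -0.52 to 0.01 over the columns left out. For tributyltin minus oil, thinning gave -0.62 for CLDN1 and 0.00 for CLDN11, and leaving out columns gave -1.90 to 0.73 for CLDN11. The sex term under methyltestosterone turned to 0.01 for SOX9 with pseudocount 0.5. The cause of these changes was not tested.

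Of 553 genes called by sex, the number became 193 with no filter, 347 with DESeq2, 1026 in the untreated and methyltestosterone columns alone, 27 in the other columns alone, 248 with thinning and 216 to 449 with a column left out. For tributyltin minus oil it was 1 with pseudocount 5 or a mean of 20 RPM, 5 with edgeR, 2 with DESeq2 and 0 to 49 with a column left out. For methyltestosterone minus untreated (32) it was 19 with pseudocount 0.5, 60 with pseudocount 5, 0 with no filter, 80 with a mean of 20 RPM, 93 with edgeR, 1096 in the untreated and methyltestosterone columns alone, 0 with thinning and 0 to 48 with a column left out. For the sex difference between deep and shallow columns (1) it was 0 with pseudocount 0.5, with no filter and with median-of-ratios scaling, and 3 with a mean of 20 RPM. Over 32 further named genes, none turned direction in 571 refits of the sex difference. In 148 refits the call was lost, 30 of them in the shallow columns alone and 63 with a column left out. These genes were all called by sex in the main fit of the same columns, so a kept direction is no independent support. Depth limits CLDN1, CLDN3 and CLDN5, with 23, 5 and 3 tags.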
